A study of Rattus norvegicus with 12 samples.

Results

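Isolated open sites were regions listed as accessible that stood alone, far from any other shared open region. Peaks of 12 libraries were merged wherever they shared at least 1 bp, and a merged region on chromosomes 1 to 20 with a peak in 6 or more libraries was called an isolated site if no other merged region with peaks in 2 or more libraries lay within 100 kb of either edge. This gave 704 sites among 42527 regions with that support, or 1.66%. The other 41823 regions were the comparison set, and 118874 merged regions were formed in all. The sites were selected on the peak positions themselves, so their spacing and everything else read from the same peaks are given as a description without a test.

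The libraries were made by ATAC-seq from frozen amygdala of adult male rats with the strain label Sprague Dawley/WT. Control rats (n = 6) had an intraperitoneal injection of saline, Ethanol rats (n = 6) had 1 g/kg ethanol by the same route, and the amygdala was taken 1 h later. Each library came from 1 animal, and the tissue was used whole, so each peak list mixes all of its cell types. The comparison of the groups asked whether acute ethanol changes which chromatin is open. The lists hold 50370 to 75847 peaks covering 75.6 to 134.6 Mb per library, and no read counts, so the sequencing depth is unknown and no marker of the tissue could be checked.

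In ATAC-seq a transposase cuts and tags DNA where nucleosomes leave it exposed, so that reads pile up at promoters, enhancers and insulators. Such elements tend to crowd around active genes, where promoters and their enhancers lie close together. Long stretches with few genes are mostly packed in closed chromatin, often at the nuclear periphery, and an accessible element there can be a distant enhancer, a binding site for the architectural factor CTCF or a lone promoter. The peak lists do not say which of these, if any, a site is. Gene annotation of the genome build used (Rnor_6.0, per the submitters' processing notes) was not used here. Repeats, assembly gaps and the mapping of reads at the sites were not checked either.

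The isolated sites were small. For each region the length in peaks, called covered length, was averaged over the libraries that had a peak there. The median over the sites was 888 bp, with quartiles of 638 and 1288 bp and a range from 285 to 6486 bp. Other regions, weighted so that the same share fell in each number of libraries (called equal support below), had a median of 1310 bp and quartiles of 908 and 2014 bp. The sites were therefore shorter by 422 bp at the median, or 0.678 times as long. The same was seen in each of the 12 libraries taken alone. The ratio of the medians ranged from 0.624 in Control 5 to 0.741 in Control 1.

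The shorter length was not only a lack of very broad regions. Sites with a mean covered length under 500 bp numbered 68 (9.66%), against 2.25% of other regions of equal support. At the other end, 6 sites (0.852%) covered 5 kb or more, against 5.33%. Most sites were a single block: 109 (15.5%) were ever split into more than 1 peak in a library, against 38.9%. Merged width showed a wider gap, with medians of 1368 and 2258 bp. Peaks covered a median of 68.4% of the merged width at the sites and 61.1% elsewhere.

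**Figure D1:**
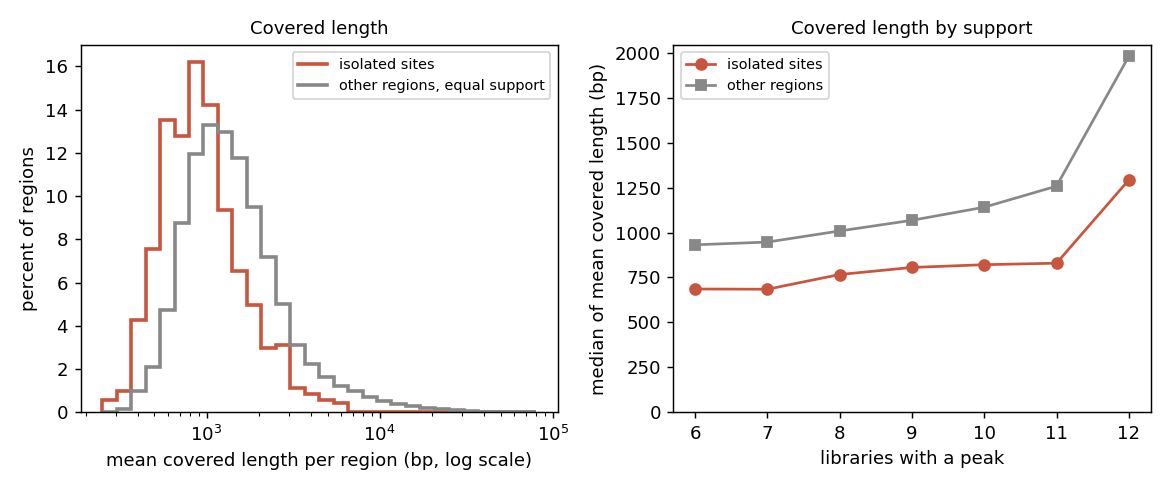
Left, percent of regions by mean covered length (bp, log axis) for 704 isolated sites and for other regions weighted to equal support. Right, the median of mean covered length (bp) by the number of libraries with a peak; isolated sites were shorter at each support, from 686 against 932 bp at 6 libraries to 1293 against 1981 bp at 12.

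Support was somewhat lower than elsewhere. A peak was present in all 12 libraries at 296 of them (42.0%), against 50.1% of the other regions. At the lowest support, 95 sites (13.5%) had a peak in 6 libraries, against 9.37%. Of all regions with 6 libraries 2.37% were isolated, and of those with 12 libraries 1.39%. Distance did not go with support: the median distance to the nearest counted region was 147 kb at 6 libraries and 150 kb at 12, and between 134.5 and 154.9 kb at the supports in between.

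Peak scores told the sites from the rest less than length did. The score column of the lists has no stated meaning. Scores were therefore turned into percentiles within each library, rising with score on a scale from 0 to 100. Tied scores shared the mean of their ranks, so the lowest score of a list need not stand at 0. Where a library had more than 1 peak in a region, the highest percentile was taken. This can raise the other regions more, since 38.9% of them were ever split in a library, against 15.5% of the sites. The mean percentile had a median of 51.1 over the sites and 49.0 over other regions of equal support. Taken library by library, the medians of sites and other regions were equal in 8 of 12 libraries. They were lower at the sites in Control 2 and higher in Ethanol 2, Ethanol 3 and Ethanol 6. Equal medians here mean that both fell on the same tied score, not that the scores were spread alike. Among regions present in all 12 libraries the order was the other way, 77.0 against 79.5. Of the sites, 63 (8.95%) had a mean percentile of 90 or more, against 10.9%. High score did not remove the difference in length: regions with a peak in all 12 libraries and a percentile of at least 90 covered a median of 1664 bp at the sites and 2439 bp elsewhere.

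Where a site was present throughout, its length varied less between animals than was usual. The coefficient of variation of covered length over the 12 libraries had a median of 18.4% at the 296 sites and 22.8% at the other regions of all 12 libraries. The longest library exceeded the shortest by a median factor of 1.82 at the sites and 2.14 elsewhere.

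Single sites showed how far these ranges stretched. The highest scoring site, chr8:180893-182493, had a mean percentile of 99.998. Its covered length was 1586 to 1591 bp in Control (median 1587) and 1587 to 1601 bp in Ethanol (median 1590). All 12 libraries thus placed nearly the same block there, with a coefficient of variation of 0.276%, the lowest of the 296 sites. The site at chr15:44410120-44412933 followed at a percentile of 99.9, with 1912 to 2309 bp in Control (median 2129) and 1907 to 2722 bp in Ethanol (median 2064). The third, chr1:60715680-60719187, had a percentile of 99.7, with 1940 to 2742 bp in Control (median 2270) and 1989 to 2774 bp in Ethanol (median 2531). The groups overlapped at all 3.

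The longest sites were not the highest scoring ones. At chr14:441937-451022 peaks covered 5512 to 8873 bp in Control (median 6093) and 4932 to 8711 bp in Ethanol (median 6269). Its mean percentile was 82.9, and 1 library of each group stood above the rest. At chr12:18748198-18755887 the covered length was 4444 to 6656 bp in Control (median 6025) and 4956 to 7495 bp in Ethanol (median 6328), at a percentile of 94.0. At chr1:1476943-1484080 it was 2635 to 6467 bp in Control (median 6129) and 4484 to 6391 bp in Ethanol (median 5996), at a percentile of 67.0. Control 5 was the low library there, and the groups overlapped at each of the 3 sites.

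The surroundings followed from the selection only in part, since it sets a minimum distance and no maximum. The nearest counted region lay at a median of 148 kb, with quartiles of 119 and 202 kb and a highest value of 1194 kb. For the other regions the median was 3.32 kb. On the farther side of a site the median was 273 kb, and 5 sites had no counted region on one side of the chromosome. At 179 sites (25.4%) the nearest region was over 200 kb away, and at 13 it was over 500 kb away. Near the threshold the values ran on without a break: the 3 sites just inside it lay 100.22, 100.24 and 100.24 kb from the nearest region, and the 3 regions just outside it 99.9, 99.9 and 99.8 kb.

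The count of neighbours used regions of 2 or more libraries, so peaks of 1 library could still lie close by. No peak of any library was within 100 kb at 315 sites (44.7%), and the other 389 had a region of a single library inside that distance. The sites also neighboured each other. In 72 runs, 2 or more sites followed one another with no other counted region between them, and these runs held 165 sites. The longest had 5 sites and spanned 1784 kb of chromosome 9, from 74396192 to 76180565.

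The most remote site, chr8:19866619-19868147, was 1194 kb from the nearest counted region on one side and 1511 kb on the other, and yet had a peak in every library. It covered 801 to 1447 bp in Control (median 955) and 859 to 1127 bp in Ethanol (median 920), at a mean percentile of 88.4. Next came chr6:140361243-140362252, at 984 kb, with 462 to 927 bp in Control (median 560) and 494 to 757 bp in Ethanol (median 653). The groups overlapped at both. The third, chr6:142514229-142514954, at 909 kb, had a peak in 3 Control and 5 Ethanol libraries, with covered lengths from 0 to 711 bp and from 0 to 571 bp.

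The peak names of the same lists gave a further description of these stretches. Each name ends in a number, the numbers rise along the genome, and the highest in a library ranged from 530355 to 832962, so each list is part of a longer list of numbered calls. The difference between the numbers of 2 neighbouring listed peaks therefore counts the calls between them that were left out. Beside isolated sites there were 5.63 to 7.34 such unlisted calls per 100 kb in the Control libraries (median 7.04) and 3.75 to 10.2 in the Ethanol libraries (median 7.46). Beside other regions of equal support the libraries had 20.9 to 35.0. The level beside the isolated sites was thus from 0.179 times that beside other regions in Ethanol 4 to 0.314 times in Ethanol 5. The sites were selected for flanks free of counted regions over 100 kb, while other regions had one at a median of 3.32 kb. The part of the selection in the lower level was not tested.

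Long gaps in general also held few calls: in all gaps of 100 kb or more the libraries had 6.65 to 17.0 unlisted calls per 100 kb. Each library had fewer beside the isolated sites than in its long gaps as a whole. How the listed part was chosen from the numbered calls is not stated in the sources used here.

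**Figure D2:**
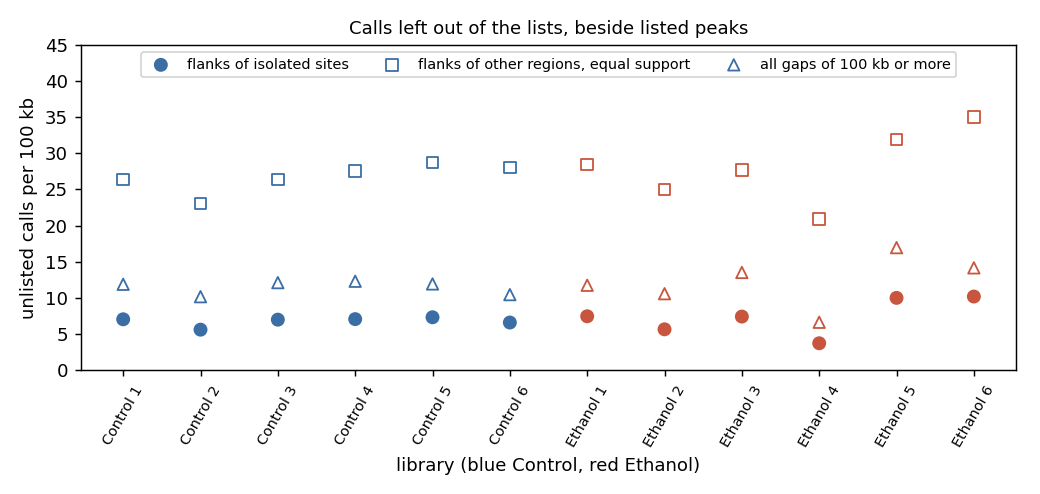
Unlisted numbered calls per 100 kb in each library (blue Control, red Ethanol) beside isolated sites (filled circles), beside other regions weighted to equal support (squares) and in all gaps of 100 kb or more (triangles). In every library the circles lie lowest, between 3.75 and 10.2, and the squares highest, between 20.9 and 35.0.

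Isolated sites were found on each of the 20 chromosomes, in 245 of the 274 windows of 10 Mb that held a region. Chromosome 1 had the most, 92, and chromosome 2 followed with 89. As a share of regions chromosome 2 stood first, with 3.19%, followed by chromosome 18 with 2.54%, chromosome 9 with 2.26% and chromosome 4 with 2.23%. The lowest shares were on chromosome 10, where 16 of 2826 regions (0.566%) were isolated, and chromosome 12, with 10 of 1412 (0.708%). The chromosomes richest in regions had the smallest shares: there were 25.1 regions per Mb on chromosome 10 and 26.8 on chromosome 12, against 10.5 on chromosome 2. The order was not strict: chromosome 19 had 22.9 regions per Mb and a share of 1.26%, and chromosome 13 had 16.1 and 1.09%. The spacing rule itself favours chromosomes with few regions. The number of sites per length varied less, from 14.2 per 100 Mb on chromosome 10 to 36.3 on chromosome 18, with 26.9 over all.

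**Figure D3:**
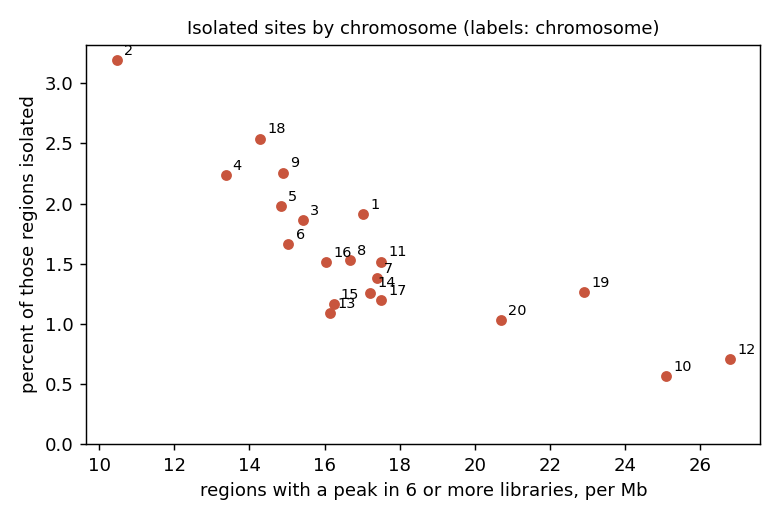
Percent of regions with a peak in 6 or more libraries that were isolated, against the number of such regions per Mb, with 1 point for each of chromosomes 1 to 20. The share ran from 3.19% on chromosome 2 at 10.5 regions per Mb to 0.566% on chromosome 10 at 25.1.

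Within chromosomes, windows with many sites held few regions, which the spacing rule itself favours. Windows of 10 Mb with 5 or more sites numbered 41 and held a median of 92 regions, against 146 over all windows. The first by number was chromosome 1 from 60 to 70 Mb, with 14 sites among 83 regions (16.9%), one of which was the high scoring site at 60715680. The window on chromosome 6 from 80 to 90 Mb had 7 sites among as few as 27 regions (25.9%).

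The next comparison asked whether ethanol changed how often isolated sites were detected. The share of the 704 sites with a peak was 75.7 to 90.5% in the Control libraries (median 81.3%) and 74.1 to 94.0% in the Ethanol libraries (median 80.5%). The groups overlapped, with 1 Ethanol library above all Control libraries and 2 below them. The means were 81.8 ± 5.19% in Control and 82.2 ± 8.38% in Ethanol (SD, n = 6 each), a difference of 0.402 percentage points that was smaller than either SD. Its sign depended on the setting. With equal numbers of peaks taken per library it was -1.02 points, over 853 sites selected anew from those peaks. It was 2.98 points when detection asked for 50% of a site to be covered. For other regions of equal support the means were 80.9 ± 6.32% and 83.1 ± 8.41%.

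Each library's share at the sites stayed close to its share at other regions. The departures furthest from 0 were 6.87 percentage points above in Control 3 and, in the other direction, -4.41 points in Ethanol 2. The 5 libraries with the longest lists had the 5 highest shares, led by Ethanol 6 (75847 peaks) at 94.0% and Control 6 (73110 peaks) at 90.5%. The part of list length in these shares was not tested.

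**Figure D4:**
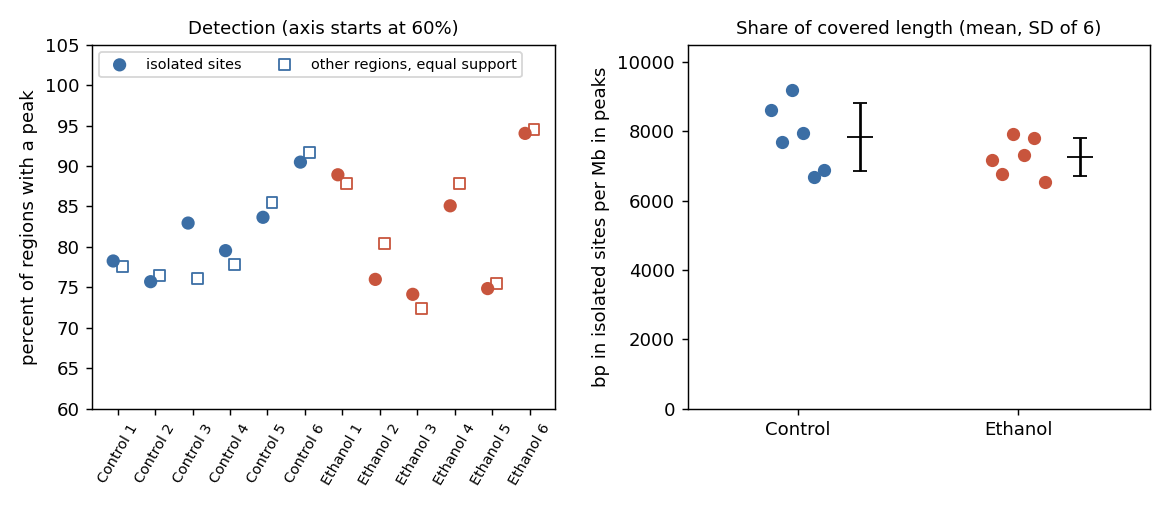
Left, percent of isolated sites (circles) and of other regions weighted to equal support (squares) with a peak in each library, on an axis from 60%. Right, bp in isolated sites per Mb in peaks, 1 point per library with the mean and SD of 6; Control averaged 7836 and Ethanol 7258, and the groups overlapped.

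By length, peaks covered 678 ± 69.5 kb of the sites in Control and 698 ± 106 kb in Ethanol (SD, n = 6 each). Divided by the total covered length of the library, this was 6697 to 9184 bp per Mb in Control (median 7821) and 6539 to 7926 bp per Mb in Ethanol (median 7252). The means of 7836 ± 969 and 7258 ± 548 bp per Mb differed by -578 bp per Mb (Ethanol minus Control), and 1 Ethanol library lay below every Control library. The sites' median covered length was 910 ± 57.7 bp in Control libraries and 954 ± 67.1 bp in Ethanol libraries, while for other regions it was 1329 ± 94.0 and 1415 ± 145 bp (SD, n = 6 each). These values sum over chosen members and carry no test.

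Site by site, detection was compared over the 77224 regions of 2 or more libraries (Fisher's exact test, two-sided, Benjamini-Hochberg adjusted). None of the 704 sites passed an adjusted p under 0.05 (0% of all regions passed). At an unadjusted p under 0.05 there was 1 site with more Ethanol libraries (0.142% of sites, against 0.148% of all regions tested) and 0 with more Control libraries (against 0.044%). These shares were near the background, but the background also holds regions of fewer than 5 libraries, which cannot reach 0.05 in this test. The shares are thus not alike in how many members could pass. The smallest p that 6 against 6 libraries can give is 0.00216, and 6 against 2 gives 0.0606. No site listed in 8 or more libraries could therefore reach an unadjusted p under 0.05. Even the smallest p, from a split of 6 against 0, did not pass after adjustment over 77224 regions. The adjusted count of 0 thus cannot show whether detection differed at the sites.

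The 1 site was chr17:25200352-25201763, 189 kb from the nearest counted region. It had a peak in 0 of 6 Control and 6 of 6 Ethanol libraries, with 638 to 1293 bp in the latter (median 1049). The groups did not overlap, and the Ethanol mean was 1035 ± 222 bp (SD, n = 6). The site met the minimum of 6 libraries through Ethanol libraries alone, so the selection and the separation rest on the same detections, and its values are a description; its adjusted p was 1 (Fisher's exact test). Its peaks were low in the lists, at percentiles from 9.65 to 42.7 with a mean of 18.3. Among the higher scoring 50% of each list the 2 groups had the same number of libraries with a peak there, and with equal numbers of peaks taken per library the difference was 3 libraries.

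Next on the Ethanol side were 2 sites with 6 Ethanol and 2 Control libraries (two-sided Fisher's exact p = 0.0606, adjusted p = 1 for each). At chr6:19093273-19094667 peaks covered 943 to 1286 bp in Ethanol (median 965), and 915 and 969 bp in the 2 Control libraries that had one. At chr19:4938235-4939664 the Ethanol values were 681 to 945 bp (median 924), and the 2 Control values were 903 and 1390 bp. The groups overlapped at both.

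On the Control side, chr3:126174730-126176196 and chr7:32874044-32874892 had a peak in 6 Control and 2 Ethanol libraries (two-sided Fisher's exact p = 0.0606, adjusted p = 1 for each). The first covered 446 to 1123 bp in Control (median 807), and 825 and 1096 bp in the 2 Ethanol libraries. The second covered 469 to 847 bp in Control (median 498), and 468 and 528 bp in the 2 Ethanol libraries. At chr8:43771798-43772455 there were 5 Control libraries, with 367 to 515 bp, and 1 Ethanol library with 639 bp (two-sided Fisher's exact p = 0.0801, adjusted p = 1). The groups overlapped at all 3.

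Over the 408 sites with 6 to 11 libraries, 145 (35.5%) had more Ethanol libraries, 102 (25%) had as many of each, and the remaining 39.5% had more Control libraries. For other regions of equal support these shares were 43.2%, 24.4% and 32.4%. The lean towards Ethanol, as the first share minus the last, was thus -3.92 percentage points at the sites and 10.7 points elsewhere. In the settings with fewer peaks the regions were merged and the sites selected anew. With equal numbers of peaks taken per library, 459 sites had 6 to 11 libraries, and the leans were -8.50 and 2.102 points. Among the higher scoring 50% of peaks there were 569 such sites, with leans of 0 and 12.9 points. Leaving out a library makes the groups unequal in size, and few tied sites then remained. Without Control 6, 237 of the 408 sites were on the Ethanol side and 171 on the Control side. The 102 sites tied in the full set were thus all put on a side. Leans with a library left out are therefore a different measure, and their sign cannot show whether the main leans rest on single libraries. On this measure both leans turned sign. That of the sites ran from -23.8 points without Ethanol 6 to 16.2 points without Control 6. It was also above 0 without Control 3, Control 5, Ethanol 2 or Ethanol 3. That of the other regions ran from -7.62 points without Ethanol 6 to 27.9 points without Control 6. The gap between them, -14.6 points, remained below 0 with each library left out, between -20.0 without Control 5 and -6.64 without Ethanol 2, where it was nearest to 0; without Control 3 it was -6.99. The sites share the same 12 libraries, so the gap carries no test.

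Covered length was compared at the 296 sites with a peak in every library. Log2 lengths were centred on each library's median and tested with limma over 21640 regions. No site passed an adjusted p under 0.05 (0% of all regions passed), and the smallest limma adjusted p was 0.878. At an unadjusted p under 0.05, 4 sites were wider in Ethanol (1.35%, against 2.95% of all regions tested) and 8 narrower (2.7%, against 2.22%). Without centring on the library median the split was 10 wider and 4 narrower of the 296 sites. Over all 21640 regions it was then 817 wider and 173 narrower. Centring lowers the log2 differences, since without it the median of all regions was 0.05 and with it -0.01. The median log2 difference of the sites was -0.05, and 109 of 296 (36.8%) were above 0, against 47.3% of all regions. Without centring the sites' median was 0.01.

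The 3 sites leading the wider side lay on chromosomes 6, 12 and 14. At chr6:97390213-97392237 peaks covered 817 to 1401 bp in Control (median 1131) and 1099 to 1967 bp in Ethanol (median 1553). Here 5 of 6 Ethanol libraries exceeded every Control library, and the log2 difference was 0.44 ± 0.15 (SE; limma adjusted p = 0.938). At chr12:15442536-15444762 the values were 856 to 1482 bp in Control (median 1212) and 1345 to 2077 bp in Ethanol (median 1760). The log2 difference was 0.47 ± 0.17 (SE), with 4 Ethanol libraries above every Control library. At chr14:35424741-35426288 they were 545 to 994 bp (median 740) and 697 to 1479 bp (median 1027), a log2 difference of 0.46 ± 0.19 (SE), again with 4 Ethanol libraries above. The limma adjusted p was 0.938 for both, and the groups overlapped at all 3.

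The leading narrower site was chr4:8989319-8992381. Its peaks covered 1760 to 2928 bp in Control (median 2193) and 1203 to 2266 bp in Ethanol (median 1553). In this case 4 of 6 Ethanol libraries lay below every Control library, and the log2 difference was -0.56 ± 0.14 (SE; limma adjusted p = 0.878). At chr3:167596239-167597224 the values were 599 to 917 bp in Control (median 741) and 493 to 857 bp in Ethanol (median 586), with a log2 difference of -0.37 ± 0.11 (SE; limma adjusted p = 0.910). At chr4:39101444-39103938 they were 1366 to 2317 bp (median 1811) and 1213 to 1737 bp (median 1381), with a log2 difference of -0.41 ± 0.16 (SE; limma adjusted p = 0.938). At these 2 sites 3 Ethanol libraries lay below every Control library, and the groups overlapped.

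**Figure D5:**
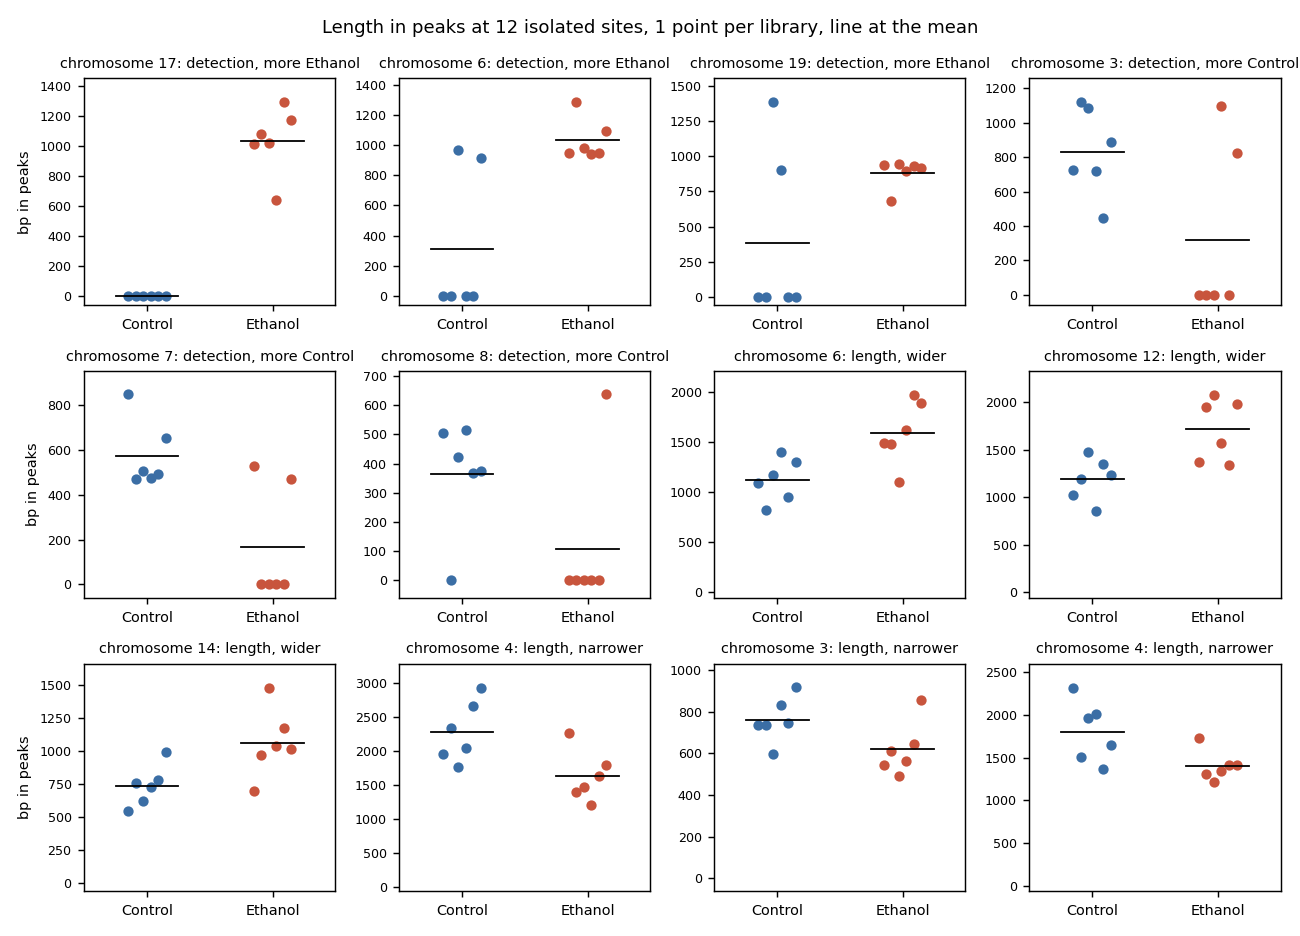
Length in peaks (bp) in each library at 12 isolated sites, the 3 leading ones on each side by Fisher's test (detection) and by limma (length), with a line at the group mean and 0 where no peak was listed. Groups separate fully only at the chromosome 17 site, with 0 bp in each Control library and 638 to 1293 bp in Ethanol.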

How the data were processed

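For every library the authors deposited its own list of peaks, in 5 columns that hold the position (chromosome, start and end), a name and a score. The submitters' processing notes name BWA, MACS2 2.1.1, bedtools 2.27.1, featureCounts 1.5.0, edgeR and the build Rnor_6.0; which step each served, and how duplicate reads and the transposase offset were treated, is not given in the sources used here. The deposited score starts at 5, its unit is not stated, and it was used only as a rank within a library. Greater depth can add peaks and widen them, and without read counts this could not be corrected. The precision is that of 6 animals a group.

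Groups and replicate numbers came from the sample labels, which name no batch. The sites, tests and naming rule were chosen with earlier results of these data known. Starts were raised by 1 to count from 1. A region counted as detected in a library with a peak overlapping it by 1 bp or more. Percent and bp values of other regions were weighted to the support of the sites, except their shares by number of libraries. Detection was tested with Fisher's exact test (scipy 1.17.1) and covered length with limma 3.58.1 (lmFit, eBayes; R 4.3.3), each over all regions with Benjamini-Hochberg adjustment at 0.05; the steps were tested on simulated data. Named were the 3 sites on either side with the lowest p by Fisher's test (ties by covered length) and by limma, the 3 longest, highest scoring and most remote, and the 3 regions on each side of the 100 kb threshold.

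The alternatives were neighbour distances of 50 and 200 kb, neighbours with 1 or 4 libraries, support of 8, the higher scoring 50% of peaks, the same number of peaks (50370) per library, detection as 50% of a region covered, tests over regions of 4 or more libraries, merged width, means, no centring, quantile normalization, a pseudocount of 100 bp over regions of 2 or more libraries, a replicate block, and each library left out. For the higher scoring 50% and the same number of peaks, regions, ranks and sites were formed anew from the peaks kept. Leaving out libraries for the unlisted calls, and all alternatives for the lean of detection, were chosen after seeing the data. Distances to genes and sequence features needed an annotated Rnor_6.0 genome and were not analysed here.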

Additional observations from a re-analysis of the deposited data

Results flagged for a closer look

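At 3 sites, 1 library lay far from the other 5 of its group, by the ratio of its gap to the range of the group, among 50 groups of 6 libraries examined; chance gives about 1 in 20. At chr19:4938235-4939664, Ethanol 2 had 681 bp in peaks and the other Ethanol libraries 894 to 945 bp. At chr1:1476943-1484080, Control 5 had 2635 bp and the other Control libraries 5589 to 6467 bp. At chr15:44410120-44412933, Ethanol 1 had 2722 bp and the other Ethanol libraries 1907 to 2156 bp.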

How the results depend on the processing

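With all 12 libraries kept, 23 of 34 values of the main comparisons stayed within the spread or on their side of the threshold under the alternatives. The number of sites followed the definition: 2232 with a neighbour distance of 50 kb, 179 with 200 kb, 315 when regions of 1 library counted as neighbours, 1371 when only those of 4 or more did, and 1172 from the higher scoring 50% of peaks. The difference in median length of -422 bp was -890.5 bp by merged width and -833 bp by means. The difference in score percentile of 2.06 was -0.825 among the higher scoring 50% of peaks and -2.47 over sites of all 12 libraries, so its sign depends on the set. Among the higher scoring 50% of peaks, the Ethanol minus Control difference in bp per Mb was -1962 instead of -578. It was taken over the 1172 sites selected anew, on a shorter total length. With a pseudocount of 100 bp over regions of 2 or more libraries, 1 site passed the limma adjusted threshold, the chromosome 17 site (log2 difference 3.35 ± 0.36 SE, limma adjusted p = 0.0056), where a group without peaks has no spread by construction. At an unadjusted p that fit gave 31 of 704 sites for covered length, beside 3388 of all 77224 regions. The higher scoring 50% of peaks gave 30 of 603 sites, beside 760 of 14761 regions. The main fit gave 12 of 296 sites, beside 1120 of 21640 regions. For detection the higher scoring 50%, the same number of peaks and detection as 50% covered gave 2 sites each, against 1. Among the higher scoring 50% of peaks the Ethanol minus Control number of libraries at the 6 sites named for detection came nearer to 0: the chromosome 17 site went from 6 to 0, those of chromosomes 6 and 19 from 4 to 2 and 1, and those of chromosomes 3, 7 and 8 from -4 to -2, -1 and 0. With 50% covered the chromosome 3 site had -1. The log2 differences of the sites named for covered length kept their sign in each fit that gave a value; the chromosome 14 site gave none among the higher scoring 50% of peaks.

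Deviations of samples that share a replicate number had correlations of -0.0722 to 0.214, too low for the numbers to be read as pairs. With the replicate block, 0 sites passed for covered length (limma). At an unadjusted p under 0.05 there were 20 of 296, 7 wider and 13 narrower. Over all 21640 regions there were 735 wider and 536 narrower. For detection (exact McNemar test) 0 sites passed, and 1 had an unadjusted p under 0.05. With 6 pairs the smallest p of that test could pass only if most regions reached it. Its adjusted count of 0 thus cannot show whether detection differed.

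Each library was left out in turn. The number of sites ranged from 675 to 724, the difference in median length from -433 to -397 bp, in score percentile from 1.80 to 2.69, in share detected from -1.97 to 2.14 percentage points, in bp per Mb from -806 to -309, in the lean of detection from -20.0 to -6.64 points, and unlisted calls beside sites from 6.83 to 7.41 per 100 kb. No site passed an adjusted threshold, a count that for detection cannot show whether the groups differed. Sites at an unadjusted p numbered 1 to 7 for detection, where the smaller design passes other splits, and 8 (without Control 3) to 17 (without Control 6) for covered length. Peak lists without counts limit these results to presence and length.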

Other observations

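Chromosome X was outside the definition. The same steps there gave 116 isolated sites among 674 regions with a peak in 6 or more libraries (17.2%), or 72.5 per 100 Mb against 26.9 on chromosomes 1 to 20. Regions were few, 4.22 per Mb against 16.2. The 116 sites had a median covered length of 1032 bp, a median score percentile of 53.4 and a median distance of 191 kb to the nearest counted region, and 46 of them had a peak in all 12 libraries. All animals were male and so carried 1 copy of this chromosome; its part in these values was not tested.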
